A study of Mus musculus with 12 samples.

Results

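Wild-type skeletal muscle was set against wild-type testis, with 3 libraries of each. Genes were kept where the deposited normalised count was at least 10 in 3 or more of these 6 libraries, which left 19994 of the 47730 features in the table. The 6 libraries are part of a series of 12, and the libraries of mutant mice were not used. Both groups were male Bckdk+/+ mice on a C57Bl/6J background, 5 to 6 months old, freely fed and killed between ZT6 and ZT7, hours counted from lights on. Muscle was gastrocnemius and plantaris combined, and about 20 mg of each powdered tissue gave the RNA. Libraries were polyA-selected and read as paired ends of 150 bases. The titles call the 3 libraries of each tissue biological replicates. The table's columns carry the same 3 numbers in both tissues, written here as A, B and C, and those numbers are in no label. P-values measure the spread between these samples.

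Gastrocnemius and plantaris are fast-twitch limb muscles. Their fibres hold arrays of myosin and actin filaments, release calcium from an internal store through the ryanodine receptor, and refill ATP through creatine kinase, glycolysis and oxidative phosphorylation. Testis is mostly germ cells that pass from spermatogonia through meiosis to spermatids, supported by Sertoli cells and, between the tubules, by androgen-making Leydig cells. During meiosis the X chromosome is silenced in germ cells, and many testis-expressed genes are autosomal copies of genes used elsewhere, some of them copied through RNA and so without introns. In whole tissue, fewer cells of a type and less RNA per cell cannot be told apart, and every difference below is between whole tissues.

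The recovered reads amounted to 14213960 to 15783292 per library. The 10 highest genes of a library held 20.2% to 21.7% of a muscle library and 3.01% to 3.10% of a testis library, and 22094 to 22536 features had reads in muscle against 28211 to 28975 in testis. Pearson's r of log2 values over the genes tested was 0.978 to 0.983 within muscle, 0.982 to 0.986 within testis and 0.385 to 0.420 between them, as a description across genes. Marker genes of both tissues went with the labels. All 30 members of a sarcomere list were called higher in muscle, where 37.3% of all genes tested were. All 20 members of an acrosome list were called higher in testis, where 50.6% were. The lists were chosen with earlier results of these data known, and slow-fibre genes form a separate list, so these counts are a description.

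The level of each tissue's own genes in the other tissue was not uniform between libraries. For the 100 muscle-restricted protein-coding genes with the highest counts, the median level in testis was 0.544% of the muscle mean in library A, 0.339% in B and 0.901% in C. In testis B 27 of these 100 genes were below 0.1% and 2 had no reads, while in testis A and C none was below 0.1%. The corresponding 100 testis genes stood in muscle at medians of 1.1% in library A, 1.06% in B and 1.24% in C of their testis mean, and the lowest of the 100 was still at 0.637%, 0.603% and 0.803%. The largest fold changes below rest on these low levels, so those of the muscle genes are given with and without testis B.

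**Figure D1:**
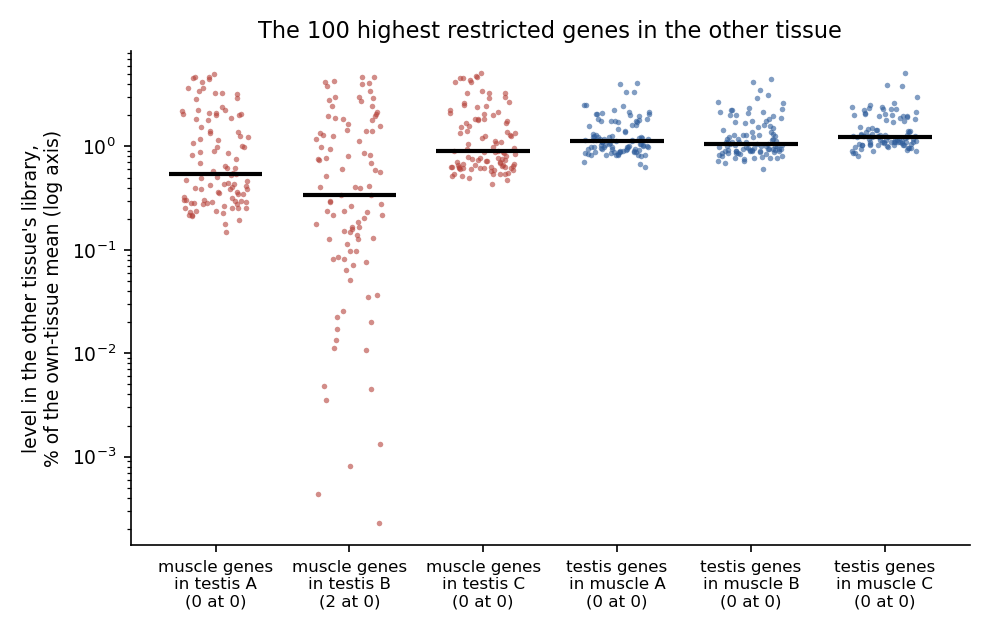
Level of the 100 highest muscle-restricted genes in each testis library and of the 100 highest testis-restricted genes in each muscle library, as a percentage of the mean in the own tissue (log axis). Points are genes, bars are medians (0.544%, 0.339% and 0.901% in the testis libraries, then 1.1%, 1.06% and 1.24% in the muscle libraries), and the 2 genes with no reads in testis B are not drawn.

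Transcripts of the endocrine pancreas were present in all 6 libraries. Ins2, which encodes insulin, was named after its values were seen and had normalised counts of 8429, 7202 and 6594 in the muscle libraries A, B and C, with 9463, 9468 and 5640 in the testis libraries. Of the 12 genes on an islet list, 11 did not pass the test between the tissues, and their summed normalised count was 15710, 13780 and 13397 in muscle and 19206, 19038 and 10434 in testis. The transcription factor gene Nkx6-1 alone passed, higher in testis with a log2 difference of -1.05 ± 0.26 (SE) (limma, adjusted p = 0.0047). A list of 10 acinar genes summed to 153 to 307 in muscle and 96.9 to 462 in testis, and none of the 9 tested passed (limma). Neither the source of these reads nor their part in the low levels of each tissue's genes in the other was tested.

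Of the 19994 genes, 17575 (87.9%) passed the test (limma on log2(normalised count + 1), Benjamini-Hochberg adjusted p under 0.05). Muscle was higher for 7464 genes (37.3%) and testis for 10111 (50.6%). The 3 values of one tissue lay wholly above those of the other for 17869 (89.4%). Counts of called list members below are to be read beside the shares of 37.3% and 50.6%. A difference of at least 2-fold was called for 5901 genes in muscle and 8690 in testis. The median log2 difference, muscle minus testis, was -0.48 over all genes tested, 1.99 over those called higher in muscle and -3.47 over those called higher in testis. The centre of the scale depends on the normalisation. It was -0.31 with TMM factors and -1.0 with total reads, so differences of less than about this shift are to be read relative to it. Many genes passed the count filter through 1 tissue only. Counts of at least 10 in all 3 testis libraries and in no muscle library were found for 3595 genes, and 876 had the opposite pattern.

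A gene was called tissue-restricted when it passed the test, had a mean normalised count of at least 50 in its own tissue and stayed below 5% of that mean in the other. By this rule 923 genes (4.62%) were muscle-restricted and 3193 (16%) testis-restricted. With the limit at 1% they were 251 and 1071. That limit lies near the median muscle levels of the 100 highest testis-restricted protein-coding genes, 1.06% to 1.24%. Of all reads, the muscle-restricted genes made up 44.4%, 44.9% and 46.7% of the 3 muscle libraries, against 0.637%, 0.492% and 0.832% of testis A, B and C. The testis-restricted genes, more than 3 times as many, made up 34.1%, 34.5% and 34.1% of the testis libraries and 0.387%, 0.370% and 0.371% of the muscle libraries. Muscle thus put more of its reads into fewer restricted genes than testis did.

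**Figure D2:**
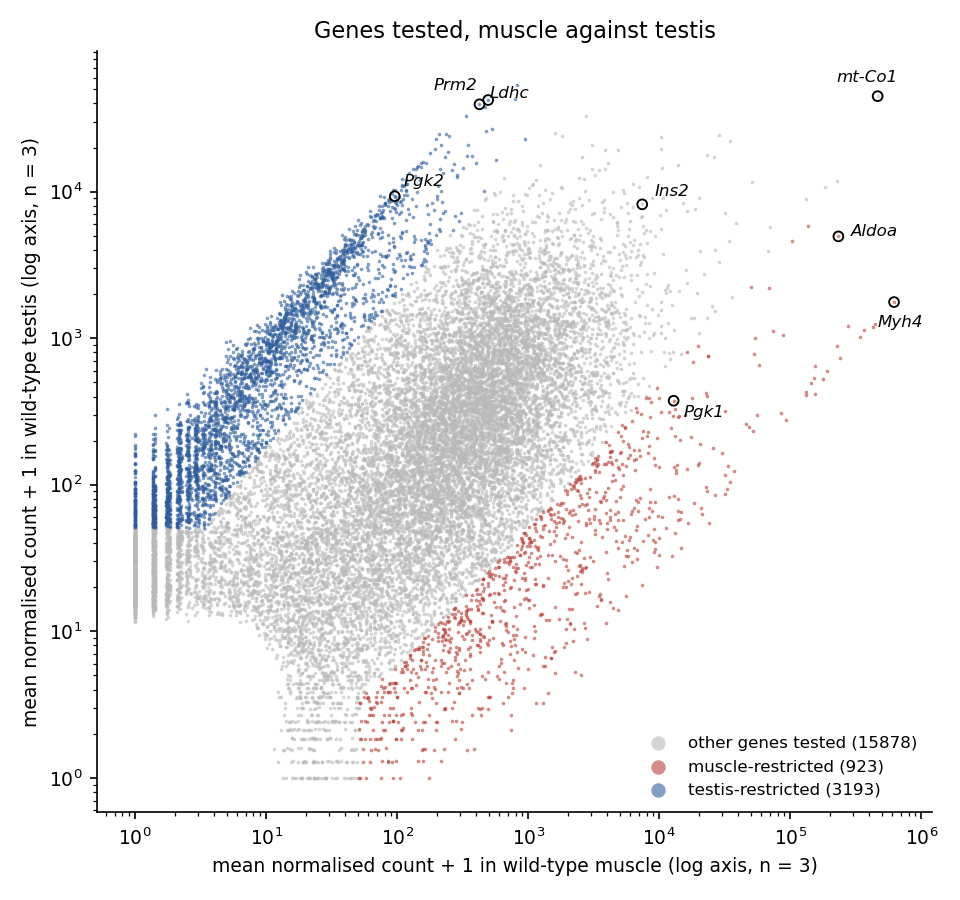
Mean normalised count + 1 of each gene tested in wild-type muscle (horizontal, log axis, n = 3) and wild-type testis (vertical, log axis, n = 3). Red points are the 923 muscle-restricted genes, blue points the 3193 testis-restricted genes and grey points the rest. The 100 highest blue protein-coding genes have medians of 1.06% to 1.24% of their testis mean in muscle.

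The 10 muscle-restricted protein-coding genes with the highest mean normalised count were, in order, Myh4, Acta1, Atp2a1, Tnnt3, Ckm, Tpm1, Tnnc2, Aldoa, Ube2c and Pvalb. Myh4, at chr11:67238029-67260446 (GRCm38) and encoding the fast type IIB myosin heavy chain, had normalised counts of 575299, 608057 and 673500 in the muscle libraries A, B and C, with 1464, 5 and 3821 in the testis libraries in the same order, which holds for every set of 3 values below. Its log2 difference was 10.90 ± 2.08 (SE) (limma, adjusted p = 0.0011) and 8.03 without testis B. Acta1, the skeletal muscle alpha-actin at chr8:123891769-123894751, had 394096, 433730 and 501133 in muscle and 1114, 5.83 and 2642 in testis, a log2 difference of 10.66 that was 8.0 without testis B. Tnnt3, the fast troponin T, had 327259, 315626 and 448375 in muscle and 1051, 0.833 and 2357 in testis. In each of these genes every muscle library lay above every testis library, and testis B held 6 normalised counts or fewer where testis A and C held over 1000.

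All 30 sarcomere genes tested were called higher in muscle and all 30 were muscle-restricted. Their median log2 difference was 8.34, or 7.60 without testis B, against -0.48 over all genes. The regulatory and filament genes followed the same order of libraries. Tpm1, which encodes an alpha-tropomyosin, had 237618, 248047 and 340669 in muscle and 1177, 416 and 2034 in testis. Testis B was the lowest testis library, but it kept more Tpm1 than Myh4 or Acta1. Myl1 and Myoz1, a fast myosin light chain and a Z-disc protein, differed by 9.74 and 9.82 on the log2 scale, and by 8.06 and 7.91 without testis B.

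Genes of excitation and calcium handling were higher in muscle for all 19 members, with a median log2 difference of 7.62 (7.2 without testis B). Atp2a1, the fast-fibre calcium pump of the sarcoplasmic reticulum, had normalised counts of 412180, 424258 and 450505 in muscle and 918, 15.0 and 2631 in testis. Ryr1, the calcium release channel, had 47558, 50887 and 46398 in muscle and 225, 115 and 405 in testis. Casq1, which stores calcium beside that channel, had 39392, 44347 and 55162 and 234, 129.9 and 408. Pvalb, the cytosolic calcium buffer parvalbumin, had 164090, 165087 and 242641 in muscle and 579.8, 0.833 and 1217 in testis. Testis B held 1 read's worth of Pvalb, yet more than 100 normalised counts of Ryr1 and Casq1, so these genes were not lower in that library by 1 common factor.

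Energy genes of muscle were also all higher in muscle, 19 of 19, with a median log2 difference of 6.81 (6.43 without testis B). Ckm, muscle creatine kinase, had normalised counts of 314437, 313799 and 389789 in muscle and 942, 75.8 and 2048 in testis. Pygm, the muscle glycogen phosphorylase, had 117618, 132041 and 143929 and 369.8, 83.3 and 825. Aldoa, an aldolase of glycolysis, stood apart from these with 221901, 211471 and 265096 in muscle and 4952, 4247 and 5651 in testis, a log2 difference of 5.56 ± 0.17 (SE) (limma, adjusted p = 2e-08). Eno3 and Pfkm, the muscle enolase and phosphofructokinase, were likewise similar in the 3 testis libraries, at 1043, 835 and 1254 for Eno3 and 2232, 2041 and 2338 for Pfkm. For these 3 glycolytic genes leaving out testis B moved the log2 difference little, to 5.45, 6.26 and 4.90 from 5.56, 6.41 and 4.96.

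**Figure D3:**
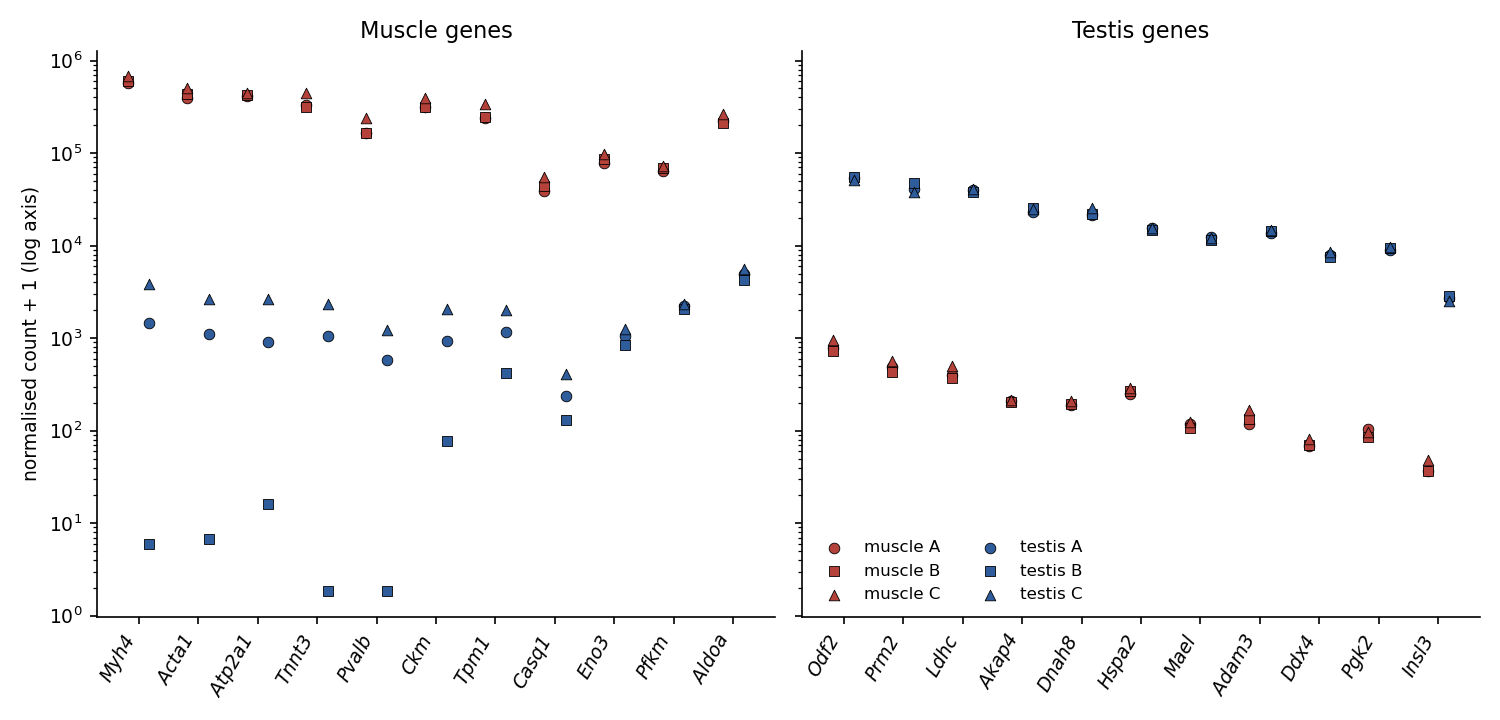
Normalised count + 1 (log axis) of 11 muscle genes and 11 testis genes in each of the 6 libraries. Red symbols are muscle, blue symbols testis, and circles, squares and triangles are libraries A, B and C. Testis B (blue squares) falls to 0.833 for Tnnt3 while it keeps 4247 for Aldoa, 2041 for Pfkm and 835 for Eno3.

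Of 14 myogenic regulators 12 were tested, 11 were higher in muscle and 1 was higher in testis, with a median log2 difference of 5.48. Mef2c, a transcription factor of muscle differentiation, had normalised counts of 7789, 8172 and 9413 in muscle and 83.8, 72.5 and 120.3 in testis. Myf6, the myogenic factor that persists in adult fibres, had 1285, 1527 and 1994 and 20.3, 7.5 and 13.4. The exception was Eya4, a transcriptional co-activator, at 659, 719.6 and 584 in muscle and 787, 958 and 939.5 in testis (log2 -0.45, limma, adjusted p = 0.0048), a call that was lost in edgeR.

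The nerve-muscle junction list had 9 of 10 members higher in muscle. Ache, which breaks down acetylcholine, had 736, 857 and 731 in muscle and 5.29, 9.16 and 9.19 in testis. The exception was Chrne, the adult epsilon subunit of the acetylcholine receptor, with 307, 281 and 340.2 in muscle and 683, 596 and 631 in testis, higher in testis with a log2 difference of -1.04 ± 0.10 (SE) (limma, adjusted p = 1.7e-05). The other subunit among the named genes, Chrnb1, was at 369, 428 and 434 and 10.6, 13.3 and 15.0. All 14 members of the dystrophin complex and membrane list were higher in muscle, with a median of 4.31. Among them Capn3, a muscle calpain, differed 99.6-fold and Dag1, which encodes dystroglycan and is used in many tissues, 6.85-fold between the means.

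The slow-fibre list did not follow the fast one. Of its 11 members 5 were higher in muscle, 1 was higher in testis and 5 did not pass. Over all genes tested 37.3% were higher in muscle and 50.6% in testis. The list's median log2 difference was 1.89, and 0.15 without muscle B. Myh7, the slow myosin heavy chain, had normalised counts of 22.8, 1662 and 80.9 in muscle and 31.8, 49.1 and 37.6 in testis. Muscle B held over 20 times the Myh7 of either other muscle library. Myh7 did not pass in limma (log2 1.89, adjusted p = 0.2) but did in edgeR and DESeq2 and without muscle A, and its log2 difference was 0.15 without muscle B. Myl3, a slow myosin light chain, had 84.2, 2031 and 352 in muscle, and Tnnt1, the slow troponin T, had 47.8, 544 and 114, with 7.94, 6.66 and 8.35 in testis. Muscle B was the highest muscle library for each of these 3 genes. Atp2a2, the calcium pump of slow fibres and of most other cells, was the member higher in testis, at 1241, 2507 and 1356 in muscle and 3324, 3161 and 3022 in testis.

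The 10 testis-restricted protein-coding genes with the highest mean normalised count were, in order, Odf2, Akap12, Prm2, Ldhc, Tnp2, Atp8b3, Hk1, Phf7, Fhl4 and Akap4. Odf2, which encodes an outer dense fibre protein of the sperm tail and lies at chr2:29889221-29931746, had normalised counts of 53433, 54638 and 51263 in testis, with 785, 726 and 955 in muscle. Its log2 difference was -6.02 ± 0.11 (SE) (limma, adjusted p = 2.2e-09). Prm2, a protamine that replaces histones in the sperm nucleus, at chr16:10791380-10796134, had 40577, 47972 and 38024 in testis and 491, 427 and 562 in muscle. Tnp2, a transition protein that acts before the protamines, had 39192, 37776 and 37344 and 448, 446 and 501. The libraries of each tissue were alike in these genes, and muscle lay 60 to 90 times below testis. The 100 highest testis-restricted protein-coding genes had similar muscle levels, with medians of 1.06% to 1.24% of their testis mean. The folds of germ-cell genes here and below rest on such levels, and whether muscle itself expresses these genes was not tested.

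All 15 spermatid chromatin genes tested were higher in testis, with a median log2 difference of -6.08. All 31 sperm flagellum genes were higher in testis and testis-restricted, with a median of -6.43. Akap4, an X-linked anchor protein of the fibrous sheath, had 23248, 25443 and 25052 in testis and 211, 201 and 213 in muscle. Dnah8, a dynein heavy chain of the axoneme, had 21559, 22226 and 25211 and 189, 195 and 208. All 20 acrosome genes were higher in testis, with a median of -6.68. Adam3 and Crisp2, a sperm surface protein and an acrosome and tail protein, stood 103 and 104 times above muscle. Spaca4, a sperm membrane protein, had 787, 867 and 765 in testis and 1.14, 1.08 and 11.6 in muscle.

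Meiotic genes and those of the germ granule were higher in testis too. Of 27 meiosis genes 26 were tested and 25 were higher in testis, with a median log2 difference of -6.24, or -6.17 with the members that had no reads in muscle at their lower bounds. Stag3, the meiotic cohesin subunit, had 5818, 6135 and 5880 in testis and 47.8, 48.7 and 57.8 in muscle. Sycp2, a lateral element protein of the synaptonemal complex, had 4439, 4283 and 4800 and 53.5, 23.8 and 60.3. All 17 tested members of an 18-gene piRNA and germ granule list were higher in testis, with a median of -6.58, among them Mael with 12318, 11439 and 12114 in testis and 118, 107 and 125 in muscle. Ddx4, the germ-cell RNA helicase, had 7940, 7599 and 8550 and 67.2, 69.3 and 79.6.

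Spermatogonial genes were mixed. Of 16 members 14 were tested, 10 were higher in testis, 3 were higher in muscle and 1 did not pass. Dazl, a germ-cell RNA-binding protein, was the highest with 1148, 1222 and 1082 in testis and 19.4, 17.3 and 30.8 in muscle. The 3 genes against the direction of the list were Zbtb16, Ret and Sall4. Zbtb16, a zinc finger factor of stem spermatogonia that other tissues also use, had mean normalised counts of 676 ± 85.0 (SD, n = 3) in muscle and 57.6 ± 10.7 in testis (log2 3.54 ± 0.17 (SE), limma, adjusted p = 2.1e-07). Ret, a receptor tyrosine kinase, had 207, 202 and 181 and 34.4, 25.8 and 30.9, and Sall4 had 78.5, 67.1 and 128 and 23.8, 27.5 and 45.9. Exons of Sall4 overlap a predicted gene on the opposite strand, with means of 64.7 in muscle and 1.70 in testis. The level of Sall4 in muscle is therefore uncertain.

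The supporting cells of testis were visible as well. Of 11 Leydig genes 10 were higher in testis and 1 did not pass. Insl3, a Leydig hormone, had 2744, 2852 and 2504 in testis and 35.3, 35.7 and 47.5 in muscle, and Cyp17a1, a steroid hydroxylase of androgen synthesis, had 1726, 1453 and 1720 and 21.6, 27.1 and 19.3. All 15 Sertoli genes were higher in testis, with a median log2 difference of -4.14, or -3.84 when the member with no reads in muscle was set at its lower bound. Their range was wide. Aard stood 92.6 times above muscle, while Clu, a secreted chaperone made by many cells, stood 5.86 times above it and Ctsl, a lysosomal protease, 1.55 times.

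**Figure D4:**
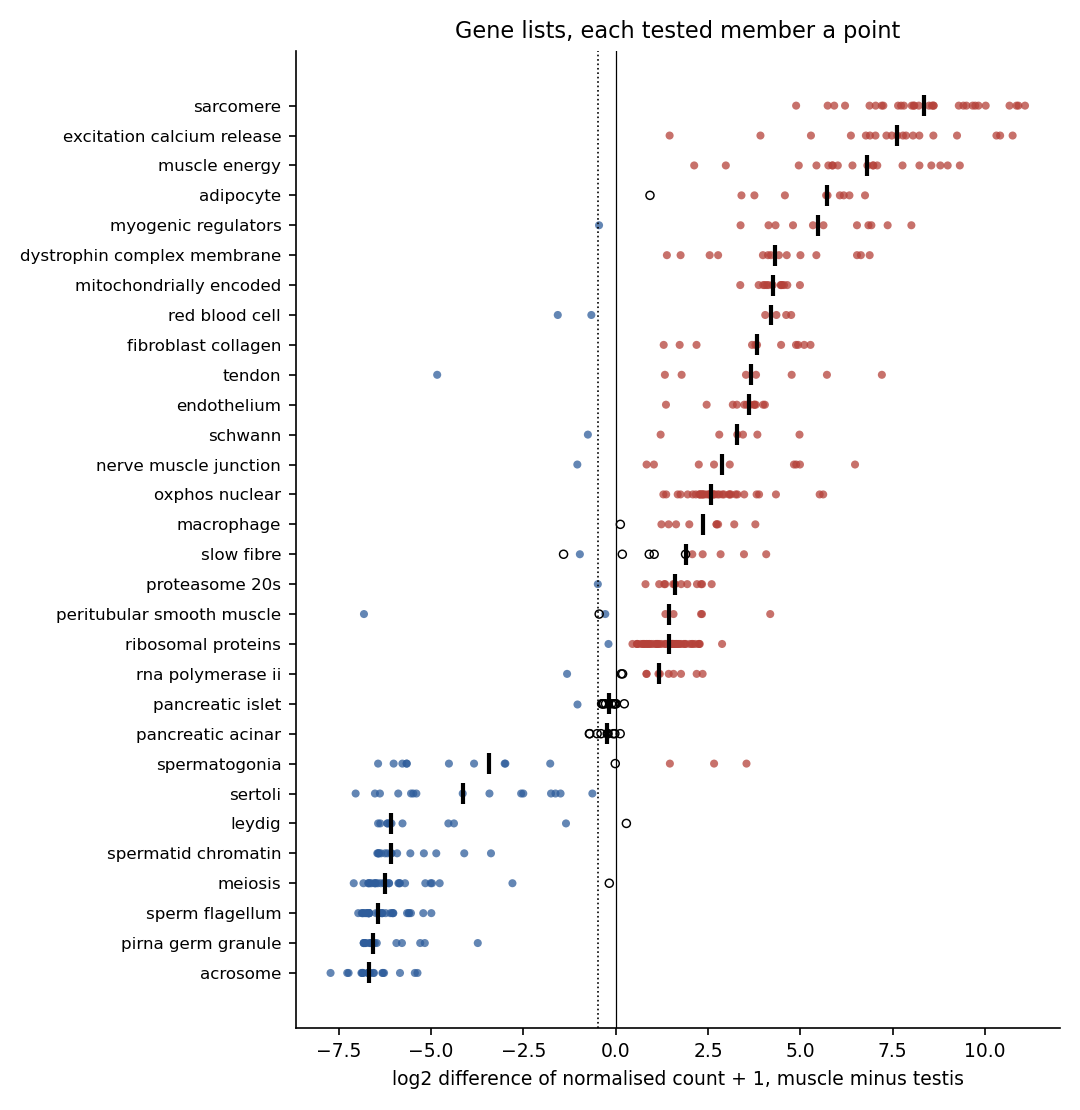
Log2 difference (muscle minus testis) of the tested members of each gene list. Filled points passed the test (red, higher in muscle; blue, higher in testis), open points did not, black bars are list medians, and the dotted line is the median of -0.48 over all genes. The medians are 8.34 for the sarcomere list, 1.89 for the slow-fibre list, -3.42 for spermatogonia and -6.08 to -6.68 for the other 5 germ-cell lists.

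Smooth muscle genes of vessels and tubule walls were split. Of 8, 5 were higher in muscle, 2 higher in testis and 1 did not pass, where 37.3% of all genes tested were higher in muscle and 50.6% in testis. Acta2, smooth muscle alpha-actin, had 906, 871 and 814 in muscle and 354, 334 and 329 in testis. Actg2, the smooth muscle gamma-actin, went the other way, with 35.3, 19.5 and 29.5 in muscle and 3208, 3079 and 3279 in testis, a log2 difference of -6.82 ± 0.20 (SE) (limma, adjusted p = 1.3e-08). Among tendon genes 7 of 8 tested were higher in muscle, and Comp, a cartilage and tendon matrix protein, was the exception with 95.6, 107 and 126 in muscle and 3194, 3074 and 3123 in testis.

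Markers of other cell types were mostly higher in muscle. Higher in muscle were all 12 endothelial and 9 of 10 macrophage genes, all 11 fibroblast and collagen genes and 6 of 7 Schwann cell genes. Of all genes tested 37.3% were. The median log2 differences of these lists were 3.60, 2.36, 3.83 and 3.29. Pecam1, an endothelial adhesion protein, had 1857, 1757 and 1645 in muscle and 118, 127 and 78.5 in testis. Col1a1, the main fibrillar collagen chain, had 2245, 2247 and 2158 and 99.7, 102 and 94.4. Summed endothelial counts were 13065, 13016 and 11605 in muscle and 1243, 1419 and 1143 in testis.

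Adipocyte genes differed between the muscle libraries. Their summed normalised count was 44157 in muscle A, 33713 in B and 11218 in C, against 542, 561 and 578 in testis. Plin1, a lipid droplet protein, had 4018, 2746 and 499 in muscle and 22.9, 30.8 and 50.9 in testis, and Cfd, adipsin, had 9808, 9209 and 2266 and 81.2, 85.0 and 76.0. Of the 10 members 9 were higher in muscle and 1 did not pass. Pck1 and Fasn, enzymes of glyceroneogenesis and fatty acid synthesis that adipocytes use, showed the same order, with 7403, 4011 and 445 for Pck1 and 10173, 4651 and 935 for Fasn. Fasn overlapped testis, where it was at 1254, 1338 and 1282, and did not pass (limma, log2 1.45, adjusted p = 0.091). The part of fat tissue in these differences was not tested.

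Mitochondrial genes were higher in muscle throughout the lists. All 37 nuclear genes of oxidative phosphorylation and all 13 genes encoded by mitochondrial DNA were called, with median log2 differences of 2.59 and 4.25. mt-Co1, a subunit of cytochrome oxidase, had normalised counts of 458127, 465386 and 468716 in muscle and 44846, 44875 and 44746 in testis. Atp5b, a subunit of ATP synthase, had 36364, 38896 and 39502 and 6201, 5985 and 6063. Reads from mitochondrial DNA were 7.91% to 8.21% of the total in muscle and 0.756% to 0.783% in testis.

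Ribosomal protein genes were higher in muscle for 45 of 46, with a median log2 difference of 1.44, or 0.96 under total-read scaling. The exception was Rpl3, whose muscle counterpart is described below. The 20S proteasome had 13 of 14 subunits higher in muscle (median 1.60), and Psma6 was the exception at 2760, 2803 and 3475 in muscle and 4224, 4052 and 4301 in testis. RNA polymerase II subunits showed a split within 1 complex. Polr2a, the largest subunit, had 1275, 1292 and 1098 in muscle and 3040, 2890 and 3184 in testis, a log2 difference of -1.32 ± 0.09 (SE) (limma, adjusted p = 1.4e-06). Of the other 11 subunits 9 were higher in muscle, such as Polr2c with 1052, 945 and 1249 and 353, 371 and 364, and 2 did not pass.

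Paralog sets were followed as 51 sets of related genes with a broadly used form and a form known from muscle, testis or both, 41 of them with a testis form and 21 with a muscle form. All 23 muscle forms were called higher in muscle, with a median log2 difference of 5.44 and 14 of them muscle-restricted. Of 49 testis forms 48 were called higher in testis, with a median of -6.32 and 42 of them testis-restricted, and only Cstf2t was not called. The 57 broad forms tested were divided, 33 higher in muscle, 17 higher in testis and 7 not called. Among all genes tested 37.3% were higher in muscle and 50.6% in testis. With total-read scaling the muscle forms Cpt1b and Ybx3 changed sign, so their direction depends on the scaling. The call for Cpt1b was also lost without the mean trend (limma, adjusted p = 0.06), without muscle B or without testis C. That for Ybx3 was lost without any 1 of the testis libraries.

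To compare members of a set with each other, normalised counts were divided by the length of the merged exons in kilobases. The testis form made up over 50% of its set's per-kilobase level in testis in 38 of 41 sets and in muscle in 3. Its median share was 88.3% in testis and 1.95% in muscle. The muscle form passed 50% in muscle in 20 of 21 sets and in testis in 4, with median shares of 92.2% and 10.2%. Without division by length the testis form passed 50% in testis in 32 sets.

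**Figure D5:**
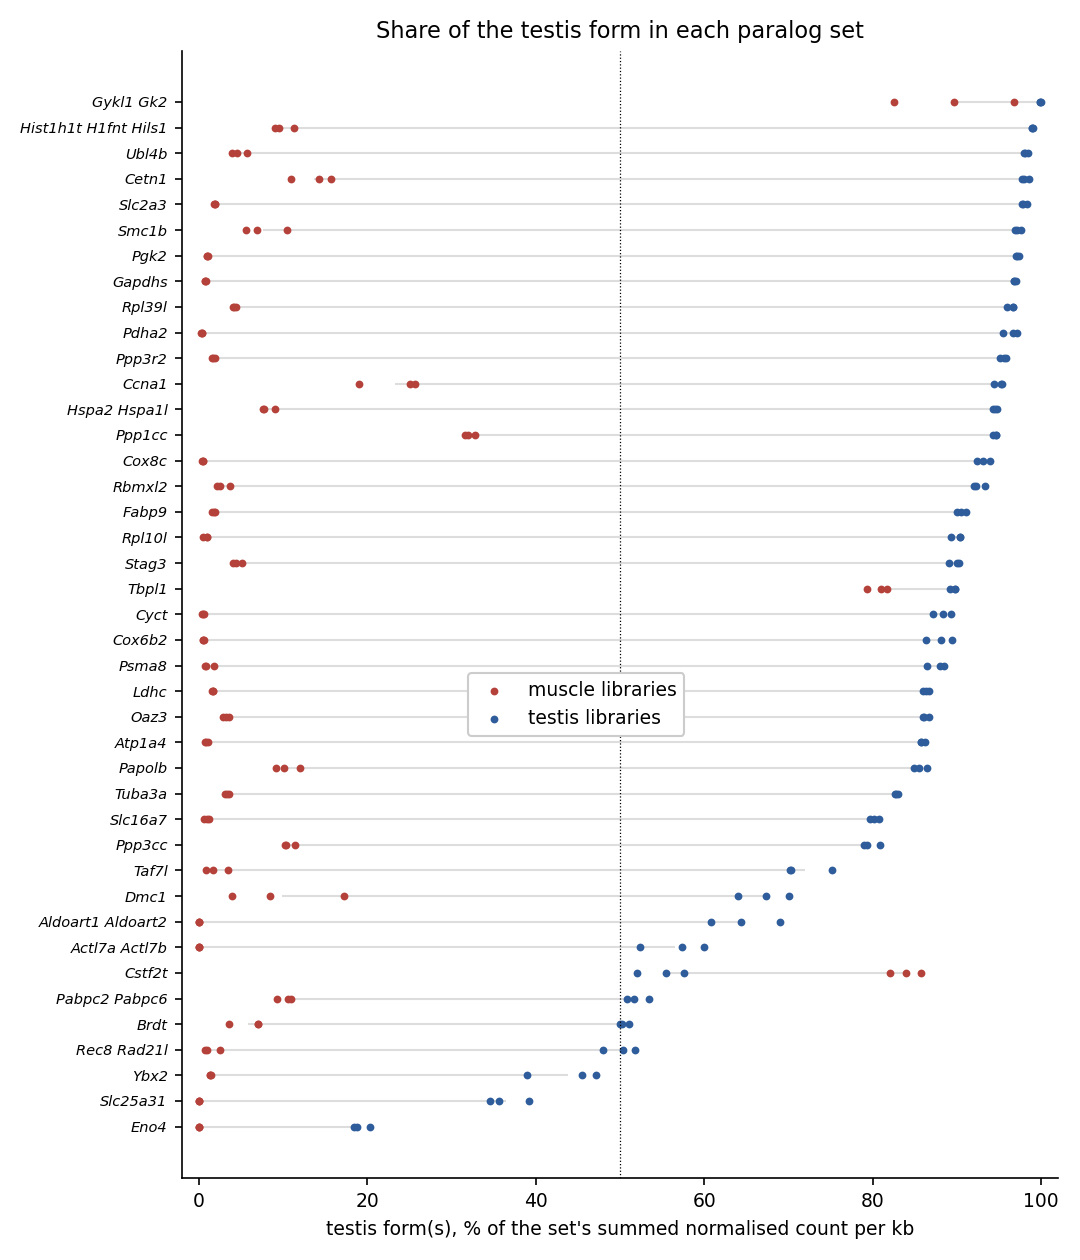
Share of the testis form, or forms, in the summed per-kilobase level of its paralog set, in each muscle library (red) and each testis library (blue), for 41 sets. The grey line joins the means and the dotted line marks 50%. In 38 sets the testis mean lies above 50%, and Gykl1 with Gk2, Tbpl1 and Cstf2t are the 3 sets where the muscle mean does too. Gykl1 and Gk2 are in muscle at 0.898% and 1.11% of their testis means. Without division by length the muscle share of Tbpl1 is 50.2%.

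Glycolytic enzymes differed in how far they changed isoform. Pgk1, the X-linked phosphoglycerate kinase at chrX:106187100-106203699, had per-kilobase levels of 5645, 5430 and 6128 in muscle, with 169.9, 156 and 173 in testis. Pgk2, its copy with 1 coding exon at chr17:40207015-40208640, had 63.7, 51.9 and 59.2 in muscle and 5485, 5755 and 5933 in testis. Pgk2 was thus 97.2% of the pair in testis and 1.01% in muscle. The log2 differences of normalised counts were 5.10 ± 0.08 (SE) for Pgk1 and -6.61 ± 0.09 (SE) for Pgk2 (limma, adjusted p = 1.1e-09 and 8.3e-10).

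The 250 bases before the RefSeq start of both genes (GRCm38.p6, 5′ to 3′ on the gene's strand) are shown because the pair swaps between the tissues, with those of the muscle gene Acta1 and the spermatid gene Prm2 for comparison. Capitals mark CpG dinucleotides. The stretches are chrX:106186850-106187099 on the plus strand for Pgk1, chr17:40208610-40208859 on the minus strand for Pgk2, chr8:123894776-123895025 on the minus strand for Acta1 and chr16:10792106-10792355 on the minus strand for Prm2.
Pgk1: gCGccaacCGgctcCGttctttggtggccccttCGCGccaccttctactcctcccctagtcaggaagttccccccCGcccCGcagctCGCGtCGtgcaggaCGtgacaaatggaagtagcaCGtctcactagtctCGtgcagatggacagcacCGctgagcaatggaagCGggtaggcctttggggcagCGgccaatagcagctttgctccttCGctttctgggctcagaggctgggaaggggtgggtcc
Pgk2: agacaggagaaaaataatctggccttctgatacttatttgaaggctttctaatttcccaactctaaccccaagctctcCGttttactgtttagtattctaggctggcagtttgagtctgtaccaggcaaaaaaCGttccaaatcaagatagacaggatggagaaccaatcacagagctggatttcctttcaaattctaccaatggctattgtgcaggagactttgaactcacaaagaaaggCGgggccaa
Acta1: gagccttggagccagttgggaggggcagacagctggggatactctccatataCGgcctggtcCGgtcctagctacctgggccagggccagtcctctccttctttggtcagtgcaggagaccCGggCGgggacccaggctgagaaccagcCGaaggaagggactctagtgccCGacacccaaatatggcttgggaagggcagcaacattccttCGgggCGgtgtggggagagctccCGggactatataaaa
Prm2: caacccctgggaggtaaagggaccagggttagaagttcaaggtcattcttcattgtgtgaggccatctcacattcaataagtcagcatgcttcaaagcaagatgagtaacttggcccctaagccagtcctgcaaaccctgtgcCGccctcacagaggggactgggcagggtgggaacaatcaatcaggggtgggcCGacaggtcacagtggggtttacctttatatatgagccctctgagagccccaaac
The Pgk1 stretch holds 17 CpG, that of Pgk2 3, that of Acta1 9 and that of Prm2 2, where the median over the 13800 such stretches that were matched to tested genes was 13 with quartiles of 6 and 21. Of the 4, only Acta1 holds the letters TATAAA on the gene's strand, which 4.41% of the matched stretches do. These counts describe the sequences and were not tied to expression.

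Lactate dehydrogenase followed the same pattern less completely. Ldha, the muscle-type subunit, had per-kilobase levels of 13656, 14388 and 18144 in muscle and 3528, 3466 and 3479 in testis, and Ldhc, the testis subunit, had 254, 237 and 314 and 25227, 24012 and 25664. Both lie on chromosome 7, and Ldhc was 86.3% of the set in testis, Ldhb included, or 76.3% without division by length. Gapdh, the standard glyceraldehyde-3-phosphate dehydrogenase, had 16325, 17182 and 20198 in muscle and 274, 255 and 284 in testis, and the sperm form Gapdhs had 115, 130.4 and 167 and 8419, 8290 and 8419. Gapdh is often taken as a reference gene, and its counts differed 66.0-fold between these tissues. Gapdh and the ribosomal protein genes have many processed pseudogenes, and how reads that fit several places were counted is not given in the sources used here, so these levels are uncertain.

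Hexokinase ran between 2 genes that are not copies without introns. Hk2, the insulin-responsive form of muscle, had per-kilobase means of 932 ± 65.5 (SD, n = 3) in muscle and 83.4 ± 2.42 in testis. Hk1, listed as the broad form, had 61.8 ± 0.67 in muscle and 3142 ± 25.3 in testis and met the rule for testis-restricted genes. Eno3, the muscle enolase, was 99.2% of its set in muscle and 31.4% in testis. There the broad Eno1 held 49.4% and the sperm enolase Eno4 19.2%. By library Eno3 held 31.0%, 27.1% and 36.1% in testis A, B and C. These shares rest on merged exon lengths of 1739 bases for Eno3, 5379 for Eno1 and 2570 for Eno4. Without division by length Eno1 held 71.8%, Eno3 14.8% and Eno4 13.3% in testis. Pgam2, the muscle mutase, was 99.5% of its pair in muscle and 97.9% in testis. Aldoart1 and Aldoart2, copies of Aldoa with 1 coding exon, had 678, 757 and 698 and 2406, 2529 and 2338 per kilobase in testis. Their coding sequences are 93.9% and 91.9% identical to that of Aldoa, so reads may be divided between the copies and these levels are uncertain.

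Mitochondrial steps after glycolysis had pairs as well. Pdha1, the X-linked subunit of pyruvate dehydrogenase, had per-kilobase levels of 2434, 2547 and 2459 in muscle and 33.6, 29.4 and 45.4 in testis, and its autosomal copy Pdha2 had 8.23, 7.36 and 7.64 and 966, 986 and 973. Cycs, somatic cytochrome c, had 2186, 2359 and 2759 in muscle and 149, 125 and 139 in testis, and Cyct, the testis form, had 8.69, 13.2 and 13.7 and 1010, 1041 and 1058. Cyct made up 88.3% of the pair in testis and 0.483% in muscle. The merged exons are 655 bases for Cyct and 3404 for Cycs, and without division by length Cyct made up 59.2% in testis.

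Cytochrome oxidase subunits had forms for both tissues. In the Cox8 set Cox8b was 92.2% of the per-kilobase level in muscle, and Cox8c was 93.2% in testis. Cox6a2 and Cox7a1, the heart and muscle forms, were 90.6% and 77.4% of their sets in muscle and 8.51% and 7.16% in testis. In testis A, B and C these shares were 8.11%, 4.47% and 12.9% for Cox6a2 and 7.52%, 5.84% and 8.13% for Cox7a1. For the ADP/ATP carrier, the testis libraries held transcripts of 3 genes. Slc25a4, the muscle form, was 97.8% of the set in muscle and 36.1% in testis. There the X-linked Slc25a5 held 27.4% and the germ-cell form Slc25a31 36.5%. By library Slc25a4 held 39.5%, 28.5% and 40.3% in testis A, B and C, and its testis mean was 1.14% of its muscle mean. Testis B also had the lowest median level of the 100 highest muscle-restricted genes, 0.339%. Whether testis itself expresses Slc25a4 at this level was not tested.

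Transport proteins of fuel and ions had tissue forms as well. Slc2a4, the insulin-regulated glucose transporter, was 95.1% of its set in muscle, and Slc2a3, a high-affinity transporter, was 98.0% in testis. Slc16a7 was 80.2% of the lactate transporters in testis, where muscle used mostly Slc16a3, at 87.5%. In the calcium pump set the testis libraries differed from each other. Atp2a1 was 31.3%, 0.772% and 59.3% of it in testis A, B and C.

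The protein synthesis machinery differed in composition. Rpl3l, the muscle form of ribosomal protein L3, had per-kilobase levels of 4634, 5475 and 6354 in muscle and 29.5, 14.7 and 30.5 in testis, while Rpl3 had 469.7, 440.0 and 478 and 540.1, 551 and 498. Rpl3l was 92.1% of the pair in muscle. Rpl3 itself was called higher in testis with a log2 difference of -0.20 ± 0.07 (SE) (limma, adjusted p = 0.036), a call that was lost with TMM scaling, with size factors from the 6 libraries, without the mean trend, in DESeq2 and without any 1 of muscle A, muscle B, testis A or testis B, and that changed sign in edgeR. Eef1a2, the elongation factor of adult muscle and neurons, was 78.5% of its pair in muscle, and Eef1a1 was 99.4% in testis.

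For ribosomal proteins L10 and L39 an X-linked gene led in muscle and an autosomal copy with 1 coding exon led in testis. Rpl10 had per-kilobase levels of 2583, 2554 and 3828 in muscle and 212, 208 and 199 in testis, and Rpl10l had 23.4, 23.3 and 16.3 and 1760, 1961 and 1854. Rpl39 had 776, 746 and 1109 in muscle and 80.6, 64.5 and 62.9 in testis, and Rpl39l had 35.6, 32.6 and 46.3 and 1899, 1903 and 1860. Rpl39l was 96.5% of its pair in testis. The 2 coding sequences (GENCODE M21, GRCm38, stop codon left out) are shown because they are short, equally long and close. Each has 153 bases, and the 23 that differ are in capitals.
Rpl39: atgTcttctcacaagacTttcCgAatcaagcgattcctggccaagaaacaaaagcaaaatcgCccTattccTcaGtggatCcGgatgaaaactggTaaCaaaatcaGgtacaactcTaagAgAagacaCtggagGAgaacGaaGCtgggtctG
Rpl39l: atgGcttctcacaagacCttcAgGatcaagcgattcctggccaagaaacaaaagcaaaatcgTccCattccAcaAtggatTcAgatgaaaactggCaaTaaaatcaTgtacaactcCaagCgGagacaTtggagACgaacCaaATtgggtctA
The pair is 85.0% identical. Over the 48 testis forms whose coding sequence could be aligned with that of a broad form, the median identity was 72.3%, from 62.0% to 93.9%.

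In 12 sets an X-linked broad form had a testis counterpart. Of the 12 X-linked genes 10 were called higher in muscle, 1 was higher in testis and 1 was not called, with a median log2 difference of 2.17, against 0.26 over the 45 autosomal broad forms tested. Those 45 include broad forms of sets with no testis form, such as Hk1 and Eef1a1, so the groups were not chosen alike. Among all X-linked protein-coding genes with a mean of at least 50 in muscle, 76.8% were higher in muscle, with a median of 1.95. All 13 testis forms in these sets lie on autosomes, and 10 of them have 1 coding exon. Beside Pgk1, Pdha1, Rpl10 and Rpl39 they included Rbmx, a splicing factor, with Rbmxl2 at 92.6% of the pair in testis, and Ubl4a, a ubiquitin-like chaperone subunit, with Ubl4b at 98.2%. Cetn2, a centriole protein, gave way to Cetn1, which was 98.1% of the pair in testis.

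The exceptions among the X-linked sets were Gk and Cstf2. Gk, glycerol kinase, had per-kilobase levels of 14.1, 8.11 and 2.65 in muscle and 4.33, 4.52 and 3.67 in testis and was not called (limma, adjusted p = 0.26). Its copies Gykl1 and Gk2 had 3662 and 3612 per kilobase in testis on average, and they exceeded Gk in muscle too, with 32.9 and 39.9. Those muscle levels were 0.898% and 1.11% of the testis means. The highest testis-restricted genes stood in muscle at similar medians, of 1.06% to 1.24%. Whether muscle itself expresses these copies was not tested. Cstf2, a polyadenylation factor, was higher in testis, at 111, 107 and 109 against 25.7, 25.1 and 19.9 in muscle. Cstf2t, its copy with 1 coding exon, had 117, 132 and 119 in muscle and 121, 145 and 136 in testis and was not called (limma, adjusted p = 0.25).

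Sets of cohesin, chromatin, chaperone and transcription proteins varied in the share of the testis form. Smc1a, a cohesin ring subunit on the X chromosome, had per-kilobase levels of 123, 116 and 101 in muscle and 25.9, 28.6 and 24.2 in testis, and meiotic Smc1b had 7.31, 8.56 and 11.7 and 896, 912 and 1005. Rec8 and Rad21l, the meiotic kleisins of cohesin, made up 51.7%, 50.4% and 48.0% of their set in testis A, B and C. Without division by length they made up 40.3% in testis. Brdt, the testis bromodomain protein, was 50.4% of its pair with Brd2 in testis, or 39.9% without division by length. H1f0, a linker histone of resting cells, had 1355, 1342 and 1529 in muscle and 112, 127 and 106 in testis, and the spermatid linker histones H1fnt and Hils1 had 5077 and 5884 in testis on average. Hspa2, the germ-cell HSP70 at chr12:76404176-76406938, had 93.0, 102 and 109.7 in muscle and 5914, 5644 and 5915 in testis. The sole X-linked testis form was Taf7l, a TFIID subunit, at 200.3 per kilobase in testis and 1.63 in muscle.

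Other testis forms kept a larger part of their testis level in muscle. Ppp1cc, a catalytic subunit of protein phosphatase 1 that sperm need, had per-kilobase levels of 599.7, 562 and 653 in muscle and 2424, 2230 and 2044 in testis. Tbpl1, a relative of the TATA-binding protein, had 124, 122 and 142 and 1053, 1066 and 1125 and was above Tbp per kilobase in both tissues. In muscle this rests on merged exon lengths of 3271 bases for Tbpl1 and 13576 for Tbp. Their mean normalised counts there were nearly equal, at 422 and 421. Ppp3cc, a calcineurin catalytic subunit, had 119.7, 129 and 133 and 802, 839 and 865. These 3 were called higher in testis without being restricted to it.

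The kinds of genes differed between the restricted groups. Of 1038 lincRNA genes tested 34.8% were testis-restricted and 2.70% muscle-restricted, against 13.7% and 4.84% of 15893 protein-coding genes. Of 1188 protein-coding genes with 1 coding exon 25.2% were testis-restricted, against 12.8% of the 14705 with more. These shares are of genes that passed the count filter, which more genes did through testis only (3595) than through muscle only (876). They depend on that filter. Among the paralog sets 22 of the 49 testis forms had 1 coding exon, against 1188 of the 15893 protein-coding genes tested.

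Over all protein-coding genes tested, 44.8% of 641 X-linked genes were higher in muscle and 44.6% in testis (median log2 difference 0.015), against 41.2% and 46.4% of 15199 autosomal genes (median -0.16). The classes stood further apart among genes chosen for their level in 1 tissue, a choice that itself favours that tissue. Among protein-coding genes with a mean normalised count of at least 50 in muscle, 76.8% of 332 X-linked genes were higher in muscle, with a median log2 difference of 1.95, against 53.5% of 10867 autosomal genes and a median of 0.51. Among those with at least 50 in testis, 36.1% of 396 X-linked genes were testis-restricted, against 17.4% of 11702 autosomal genes. X-linked genes made up 1.37% to 1.45% of a muscle library and 1.1% to 1.17% of a testis library. Of 65 Y-linked genes tested 59 were higher in testis and 6 in muscle. Members of these classes are not replicates, and no test was made between the classes.

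Some high counts belong to gene pairs whose exons overlap. Ube2c, a cell-cycle ubiquitin enzyme, had normalised counts of 195371, 206943 and 278326 in muscle, next to 207048, 216477 and 298435 for Tnnc2, the fast troponin C on the opposite strand. Rabep2 overlaps Atp2a1, Fam57b overlaps Aldoa (both partners named after their values were seen) and, in testis, Tdrkh overlaps Oaz3 in the same way. How strand was treated in counting is not given in the sources used here, so reads of such partners cannot be told apart. Exons of a gene at least 5 times higher in the same tissue were overlapped by 58 of the 923 muscle-restricted genes, 11 of them protein-coding, and by 101 of the 3193 testis-restricted genes, 26 of them protein-coding.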

How the data were processed

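Polyadenylated RNA of wild-type muscle and testis was sequenced, with 3 libraries each. Per the submitters' processing notes the tools were fastp 0.23.4, HISAT2 2.1.0, Picard 1.119, HTSeq 0.11.2 and DESeq2 1.46.0, with the build GRCm38.p4. The normalised counts, a signal per gene, were deposited by the authors as counts divided by a size factor per library, and 100% of the values came out as whole reads within 0.001 (edgeR on these reads called 17743 genes). The regularised log2 values were deposited by the authors as a second table and served as an alternative.

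Values were tested as log2(normalised count + 1) with limma 3.58.1 (R 4.3.3, empirical Bayes with a mean trend) over the 6 libraries, with Benjamini-Hochberg adjustment over 19994 genes and a threshold of 0.05, and the sign is muscle minus testis. Alternatives were other scalings, filters and pseudocounts, edgeR 4.0.16, DESeq2 1.42.0, a replicate block and each library left out. Log2 differences of low genes are understated by the pseudocount.

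Named genes are the highest and most different restricted genes, the leading called members of each of 30 gene lists with up to 3 members against the list's direction, all paralogs, and the most variable genes. A few of these are not reported here. Members and lists were chosen with earlier results of these data known. RefSeq upstream sequences were found for under 80% of protein-coding genes tested. A comparison of composition between gene sets is therefore void and none is reported. The values over all matched stretches only describe those stretches.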

Additional observations from a re-analysis of the deposited data

How the results depend on the processing

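The number of genes called and its split by tissue stayed within 1.5 times under each of the 18 alternatives. Restricted counts depend on the limit in the other tissue: below 1% there were 1322 in all, 251 in muscle and 1071 in testis, and below 10% there were 1618 in muscle. They also depend on the scaling. Total reads gave 664 muscle-restricted and 3648 testis-restricted genes and TMM factors 1027 and 3060, against 923 and 3193. With total reads 50 genes called both ways had the opposite sign. Of 136 genes named and followed, 127 kept direction and side of the threshold throughout. Myl3 ranged from -0.14 (without muscle B) to 2.15 (without muscle A) on the log2 scale. With total reads Cpt1b was at -0.15 and Ybx3 at -0.091. Rpl3 was at 0.0029 in edgeR. Cstf2t was at 0.038 with TMM and 0.073 in edgeR. The acinar list's median ranged from -1.0 to 0.092 with 1 library left out, with 0.035 without muscle A and 0.0080 without testis B. The cause of these shifts was not tested.

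With the column numbers as a replicate block 17403 genes were called, against 17575. Among the named genes the block took the adjusted p (limma) past the threshold for Rpl3 (0.083) and Ybx3 (0.051) and brought Fasn under it (0.04). The main fit did not use the numbers. Deviations of same-numbered muscle and testis libraries had r of -0.065, 0.011 and -0.013 over 10069 genes. Such values cannot show whether same-numbered libraries came from the same mouse, which no label gives. Differences among genes at counts near 1 read in the other tissue are limited by depth.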
